A study of Mus musculus with 2 samples.

Results

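The 36 genes described here encode the machinery of glucose uptake, glycolysis and lactate export, together with the oxygen sensors and target genes of hypoxia-inducible factor (HIF). A gene entered through any probe on the mouse array whose RefSeq accession belongs to one of the 36 symbols, irrespective of its signal. All 36 were found, out of 22911 genes that could be named on the array, and 65 probes report them. The rule used function and no measured value, but the genes were chosen with earlier results of these data known.

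Glycolysis splits glucose into pyruvate in the cytosol. Many of its steps can be carried out by several isoenzymes that differ between tissues, so the isoforms found in an RNA sample tell which version of the pathway was transcribed. Pyruvate is either oxidised in mitochondria or reduced to lactate and exported. HIF is a transcription factor whose alpha subunit is hydroxylated and destroyed when oxygen is present, and which raises many glycolytic genes when oxygen is short. Activated T cells use glycolysis heavily, regulatory T cells (Tregs) combine it with oxidation of fatty acids, and the proximal tubule of the kidney burns fatty acids and makes glucose rather than breaking it down.

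The RNA came from Tregs that were taken from mouse kidneys at day 28 of cGN, a kidney injury induced with anti-GBM antibody, which binds the basement membrane of the glomerulus. Sorted cells carried CD45, CD3e and CD4 as well as FoxP3-hCD2, a reporter that displays human CD2 on Foxp3-expressing cells. Total RNA was hybridised to single-colour Agilent arrays. Array 2 is the scanner output filed under the sample labelled anti-GBM lot M, and array 1 that filed under lot I. The sample titles number the 2 as repeats of 1 condition. All mice had received cGN induction, and no untreated group is analysed here. The labels state that disease severity varied with the lot, and give neither the strain, the age nor the number of mice behind each array.

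The sources assign the lots to the arrays in opposite ways. In the deposited value table, the column of lot I holds the values of array 2 (SD of the log2 ratio to its signals 0.000158 over 13802 probes) and the column of lot M those of array 1 (0.000162 over 13919 probes). The arrays are therefore named by number, and every difference is array 2 minus array 1. Lot M stands over lot I if the filing of the scanner output is right, and under it if the value table is right. A level is the log2 of a probe's signal over its array's 75th percentile, averaged over the probes of a gene that were well above background on both arrays. Levels of different genes come from probes of different efficiency and were not ranked against each other. The error after a ± sign was propagated from the scanner software's error of each spot. Variation among mice, sorts or lots is not part of it. With 1 array per lot there was no test, and "higher" and "lower" describe these 2 arrays.

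Markers were used to check what the RNA held. All 5 Treg markers, Foxp3 among them, and all 7 T cell markers on the array passed the background call on both, with median differences of 0.02 and -0.02. Markers of other cells were present too. All 16 proximal tubule markers were measured, 15 of them were higher in array 2 by 1.5-fold or more, and their median difference was 1.16. Their summed level was 7.54 on array 2 and 6.51 on array 1. For the 12 markers of distal nephron and collecting duct the summed level was 7.09 on array 2 and 6.65 on array 1. Umod alone had 6.79 on array 2 and 6.37 on array 1. The 12 macrophage markers summed to 5.41 on array 2 and 5.04 on array 1, of which Apoe alone had 4.14 on array 2 and 3.73 on array 1. The podocyte markers Nphs1, Podxl and Wt1 were well above background on neither array. A transcript in this RNA is thus not assigned to Tregs by its presence alone, and fewer cells of a type and less RNA per cell cannot be told apart in such samples.

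All 36 members were well above background on both arrays, where 60.0% of the 22911 named genes were. A level above the 75th percentile on both arrays was reached by 28 members (77.8%), and by 33.3% of all named genes. The members differed little between the arrays. None reached a 2-fold difference, which 1.43% of the 13743 genes measured on both arrays did. A difference of 1.5-fold or more was found for 2 members, Ndrg1 and P4ha2 (5.56%), close to the 5.97% among all measured genes. The median difference of the members was 0.06, against 0.01 over all measured genes, with 24 members higher and 12 lower in array 2. The share of higher genes was 66.7% among the members and 53.8% among all measured genes. A difference beyond 2 scanner errors was found for 5 members (13.9%), Ndrg1, P4ha2, Ldhb, P4ha1 and Vegfa, and for 10.2% of all measured genes. The scanner error leaves out disagreement between probes, and the 4 Vegfa probes did not share a sign. After the same scaling, 8 spike-in controls of equal amount differed by 0.03 to 0.09 between the arrays, with a median of 0.06. Scaling by these controls turned the split into 17 higher and 19 lower. That scaling shifted all genes alike, and the median became -0.01 for the members and -0.05 over all measured genes.

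**Figure D1:**
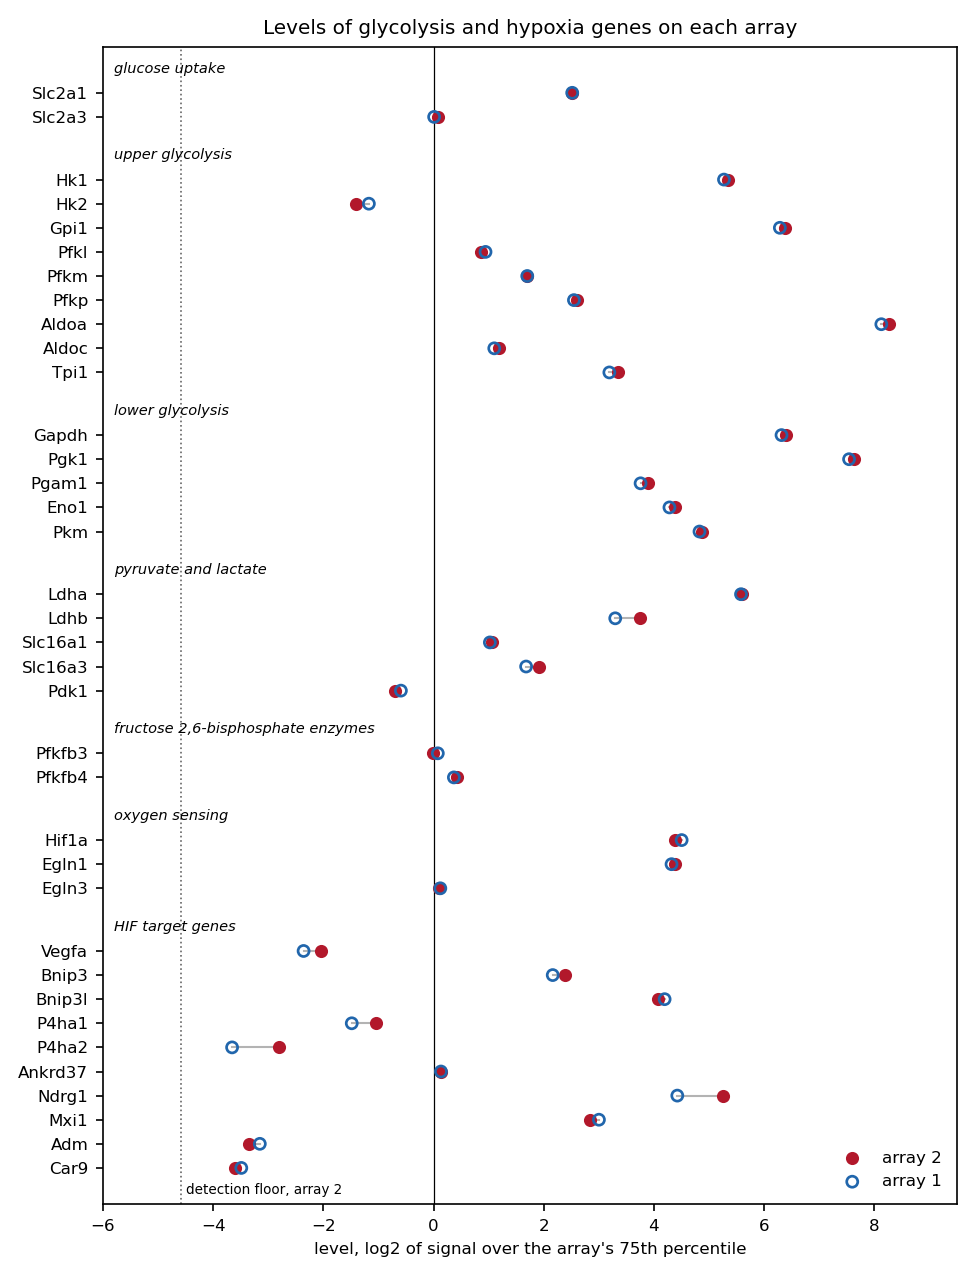
Level of each of the 36 genes on array 2 (filled red) and array 1 (open blue), on the log2 scale relative to the 75th percentile of that array, grouped by role; the dotted line is the lowest signal called well above background on array 2. The pairs of points lie close together for most genes and stand clearly apart for Ndrg1 and P4ha2; positions of different genes are not comparable because their probes differ.

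Glucose enters T cells through facilitative transporters, and both members of this step were detected. Slc2a1, which encodes the widely used transporter GLUT1 that activated T cells raise, had 2.51 on array 2 and 2.52 on array 1. With a scanner error of 0.20 the arrays could not be told apart. Slc2a3 encodes GLUT3, a transporter of high affinity known from neurons and lymphocytes, and its 2 probes gave unlike signals. The brighter probe had 3.20 on array 2 and 3.34 on array 1, and the dimmer had -3.04 on array 2 and -3.31 on array 1. Their differences of -0.13 and 0.27 opposed each other, and the mean of 0.07 ± 0.17 therefore shows no direction.

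Among the hexokinases, which trap glucose by phosphorylation, Hk1 and Hk2 were both detected. Hk1, the form of most adult tissues, had 5.34 on array 2 and 5.27 on array 1 from the first of its 2 probes, while the other probe, matched to another transcript of the gene, was well above background on neither array. Hk2, the form that insulin, growth signals and HIF induce, had -1.40 on array 2 and -1.17 on array 1. Its difference of -0.23 ± 0.21 was the lowest among the 36 members and barely exceeded its error. Hk3, a form of myeloid cells, was measured at -1.99 on array 2 and differed by 0.02 ± 0.17. Hkdc1, a further hexokinase, was well above background on array 2 only, at -3.57. That is 2.07-fold above the detection floor of array 1, a figure that leaves out the scanner error of its single probe.

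The next steps carry the sugar phosphate to the triose phosphates. Gpi1, which converts glucose 6-phosphate to fructose 6-phosphate, had 6.37 on array 2 and 6.29 on array 1, with all 3 probes between 0.06 and 0.13 higher. Phosphofructokinase, the committed step, was represented by all its 3 isoforms. Pfkl, the liver type, had 0.87 on array 2 and 0.94 on array 1. The muscle type Pfkm had 1.70 on both arrays, and the platelet type Pfkp had 2.60 on array 2 and 2.55 on array 1. None of the phosphofructokinase genes differed by more than its error, the largest difference being the -0.08 ± 0.20 of Pfkl. Both arrays thus showed the liver, muscle and platelet types side by side.

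Aldolase cleaves fructose bisphosphate, and both members of this step were detected. Aldoa, the form of muscle and most tissues, had 8.26 on array 2 and 8.13 on array 1, a difference of 0.13 ± 0.20. Aldoc, known from brain, had 1.19 on array 2 and 1.1 on array 1. Its 2 probes were spotted repeatedly, with 8 to 10 spots used for each on each array, and differed by 0.07 and 0.11, which gave 0.09 ± 0.05. Tpi1, which interconverts the triose phosphates, had 3.34 on array 2 and 3.19 on array 1, and its 3 probes were higher by 0.11 to 0.17.

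The lower part of the pathway, from glyceraldehyde 3-phosphate to pyruvate, gave the most even picture. Gapdh, which makes NADH at the oxidation step and often serves as a housekeeping control, had 6.39 on array 2 and 6.32 on array 1. Its 6 probes were higher in array 2 by 0.05 to 0.10, with a mean of 0.08 ± 0.08. Pgk1, the first enzyme of the pathway to yield ATP, had 7.63 on array 2 and 7.54 on array 1. For the mutase Pgam1 the levels were 3.89 on array 2 and 3.76 on array 1. Eno1, the ubiquitous enolase, had 4.39 on array 2 and 4.28 on array 1, and Pkm, the pyruvate kinase gene of most tissues other than liver and red cells, had 4.87 on array 2 and 4.83 on array 1. All 5 genes were higher in array 2, by 0.04 to 0.13, which turned to 4 of 5 under scaling by the spike-in controls, where Pkm became lower. Of these genes, Pgam1 alone exceeded its scanner error (0.13 ± 0.11).

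Pkm gives rise to the M1 and M2 enzymes through alternative exons. Both Pkm probes carry the same transcript accession, at 6.34 and 3.40 on array 2, and the files give no probe sequence, so M1 and M2 were not told apart here. Gapdh, Pgk1, Eno1, Aldoa and Ldha have closely similar copies elsewhere in the mouse genome, and probes for them may also have bound such transcripts. Pklr, the pyruvate kinase of liver and red cells, was well above background on neither array. Eno2 and Eno3, the neuronal and muscle enolases, were both measured, with differences of 0.13 ± 0.21 and -0.10 ± 0.20. Pgam2, the muscle mutase, had 1.48 on array 2 and 0.78 on array 1, a difference of 0.70 ± 0.20. Over the 14 members from hexokinase to pyruvate kinase, 11 were higher in array 2 and the median was 0.08. These became 9 of 14 and 0.02 under scaling by the spike-in controls.

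**Figure D2:**
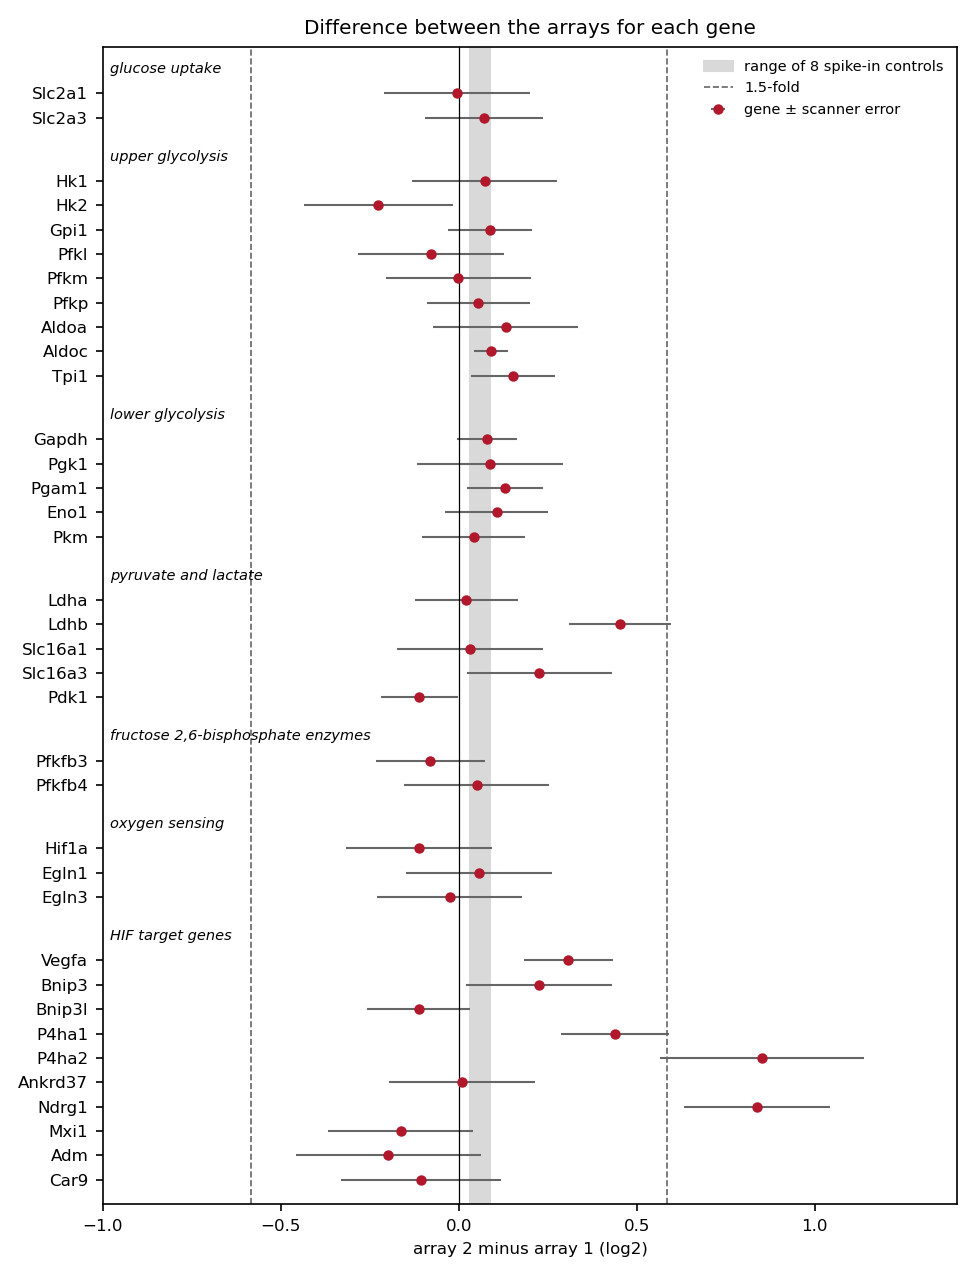
Difference between the arrays (array 2 minus array 1, log2) of each of the 36 genes, with the scanner error as a bar, the 1.5-fold limits dashed and the range of the 8 spike-in controls (0.03 to 0.09) shaded. Most glycolytic genes overlap the shaded band, whereas Ndrg1 and P4ha2 lie beyond 1.5-fold, and Ldhb, P4ha1 and Vegfa lie above 0 by more than 2 errors. The bar leaves out disagreement between probes, and the Vegfa probes did not share a sign.

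At the end of the pathway, the subunits of lactate dehydrogenase differed in how they compared between the arrays. Ldha encodes the muscle-type subunit, which favours the reduction of pyruvate to lactate and is a HIF target. It had 5.60 on array 2 and 5.58 on array 1, and its 2 probes differed by 0.01 and 0.03. Ldhb encodes the heart-type subunit, which is also abundant in kidney cortex and favours the oxidation of lactate. Ldhb had 3.75 on array 2 and 3.30 on array 1. One of its probes, with 5.49 on array 2 and 5.0 on array 1, differed by 0.49, and the other, with 2.01 on array 2 and 1.59 on array 1, by 0.41. The mean difference was 0.45 ± 0.14. Both Ldhb probes were thus higher in array 2, whereas both Ldha probes were nearly level. Proximal tubule markers, with a median difference of 1.16, moved in the same direction, and their part in the Ldhb difference was not tested. Ldhc, the testis form, was well above background on neither array.

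Lactate leaves cells through monocarboxylate transporters, and both members were present. Slc16a1, which encodes MCT1, had 1.05 on array 2 and 1.02 on array 1. Slc16a3 encodes MCT4, the exporter of strongly glycolytic cells and a HIF target, and had 1.91 on array 2 and 1.68 on array 1, a difference of 0.23 ± 0.20. Bsg, the chaperone that brings these transporters to the membrane, differed by 0.03 ± 0.20. Its relative Emb had 5.0 on array 2 and differed by 0.28 ± 0.20.

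Pdk1, a kinase that shuts off pyruvate dehydrogenase and is raised by HIF, had a mean level of -0.70 on array 2 and -0.59 on array 1. Its 4 probes were of unlike signal, from -2.41 to 2.14 on array 2. They gave differences from -0.32 to 0.05, so that the mean of -0.11 ± 0.11 has no settled sign. Of its relatives, Pdk2 was higher in array 2 by 0.37 ± 0.20 and Pdk3 differed by 0.02 ± 0.21. Pdk4, the form that fasting and fatty acids induce in kidney, muscle and heart, had -2.61 on array 2 and -4.28 on array 1. Its difference of 1.67 ± 0.33 was the largest among the related genes, and its level on array 1 lay just above the detection floor of -4.62. The genes of the pyruvate dehydrogenase complex itself, Pdha1, Pdhb and Dlat, differed by -0.03 to 0.10.

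Fructose 2,6-bisphosphate is the strongest activator of phosphofructokinase and is made by the Pfkfb enzymes. Pfkfb3, the highly active form of proliferating and inflamed cells, had 2 probes of unlike signal. The brighter probe had 2.5 on array 2 and 2.54 on array 1, and the dimmer had -2.50 on array 2 and -2.38 on array 1. Their mean was -0.00 on array 2 and 0.08 on array 1, a level that neither probe showed. The probe differences were -0.04 and -0.12. Pfkfb4, another HIF-inducible form, had 0.42 on array 2 and 0.37 on array 1 from the first of its 2 probes, and its other probe was well above background on neither array. Pfkfb1 and Pfkfb2 were measured as well and differed by 0.12 ± 0.18 and 0.01 ± 0.19. Tigar, which lowers fructose 2,6-bisphosphate, differed by -0.07 ± 0.20. All 5 genes thus lay within their scanner errors.

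The oxygen sensors differed little between the arrays. Hif1a, the oxygen-regulated subunit of HIF-1, had 4.39 on array 2 and 4.5 on array 1, a difference of -0.11 ± 0.20. Its protein is controlled mainly by degradation, which an RNA array does not show. Egln1 encodes PHD2, the main prolyl hydroxylase that marks HIF for destruction, and had 4.38 on array 2 and 4.32 on array 1. Egln3 encodes PHD3, which HIF itself induces, and had 0.10 on array 2 and 0.12 on array 1. None of the members of this group differed by more than its error. The same held for 6 of the 7 related sensor genes, among them Vhl (0.05 ± 0.20), which encodes the ubiquitin ligase subunit that recognises hydroxylated HIF, and Epas1 (0.16 ± 0.20), which encodes HIF-2 alpha and is known from endothelium and kidney interstitium. The exception was Arnt, the shared beta subunit, at -0.16 ± 0.14.

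The 10 HIF target genes outside glycolysis were the most varied group, with differences from -0.20 to 0.85 and a median of 0.12. In array 2, 6 were higher and 4 lower, or 5 and 5 under scaling by the spike-in controls or by the median of all genes. Ndrg1, a hypoxia- and stress-induced gene that is also expressed in epithelia, had 5.26 on array 2 and 4.42 on array 1. Its single probe gave a difference of 0.84 ± 0.20, which is 1.79-fold and 4.11 errors. Only 1.71% of the 7793 genes with a mean level at or above the 75th percentile reached 1.5-fold in either direction. The difference lay between 0.78 and 0.84 under the 9 alternatives that keep the arrays as the scanner output is filed. Proximal tubule and distal nephron markers moved in the same direction (medians 1.16 and 0.66), as did macrophage markers (0.30), and their part in the Ndrg1 difference was not tested.

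The prolyl 4-hydroxylases, which hydroxylate collagen and are induced by HIF in fibroblasts, were both higher in array 2. P4ha1, the main catalytic subunit, had -1.05 on array 2 and -1.48 on array 1. One of its 2 probes differed by 0.51 and the other by 0.36, with a mean of 0.44 ± 0.15. P4ha2 had -2.80 on array 2 and -3.66 on array 1 from 1 probe, a difference of 0.85 ± 0.29. P4ha2 was dim: 11.5% of the genes with a mean level under the 75th percentile reached 1.5-fold, the stricter filter on dim probes removed it, and normexp background correction lowered its difference to 0.24. Fibroblast and mesangial markers were sparse. Of 8 markers, 4 were measured on both arrays with a summed level of 2.98 on array 2 and 2.81 on array 1. Acta2 alone had 2.88 on array 2 and 2.71 on array 1. Acta2, Col1a1 and Col1a2 were higher in array 2, and Dcn was lower. Pdgfra and Col3a1 were well above background on 1 array only, and Pdgfrb and Lum on neither array. Proximal tubule, distal nephron and macrophage markers were also higher in array 2 (medians 1.16, 0.66 and 0.30). The part of these cell types in the hydroxylase differences was not tested.

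Vegfa, the angiogenic growth factor that podocytes and tubules make, showed how far probes of a gene can differ. Its 4 probes gave differences of 0.52, 0.72, 0.25 and -0.26, and the probe with the negative value was the dimmest, at -4.04 on array 2 and -3.78 on array 1. The mean level was -2.05 on array 2 and -2.36 on array 1, with a difference of 0.31 ± 0.13, or 0.50 under the stricter filter on dim probes. The 3 brighter probes were thus all higher in array 2.

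**Figure D3:**
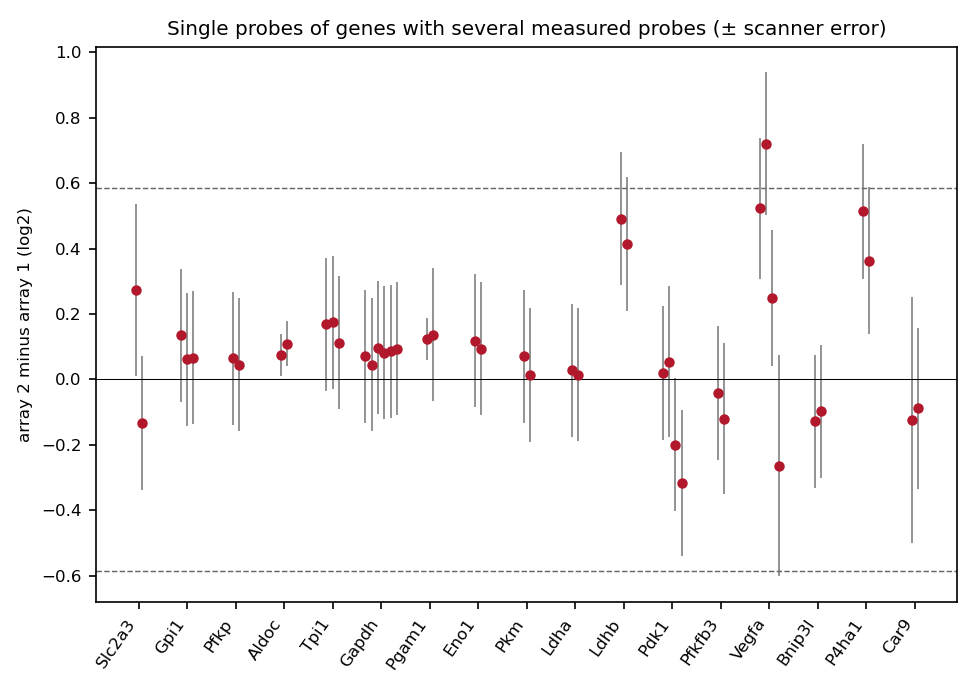
Differences of single probes (array 2 minus array 1, log2, with the scanner error as a bar) for the 17 genes with several probes well above background on both arrays; the dashed lines mark 1.5-fold. In 14 of the 17 genes all probes were of one sign, and Slc2a3, Pdk1 and Vegfa are the exceptions.

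The other HIF targets lay closer to 0. Bnip3, which drives the removal of mitochondria in hypoxia, had 2.39 on array 2 and 2.16 on array 1, a difference of 0.23 ± 0.20. Its relative Bnip3l, known as NIX and needed for mitochondrial clearance in red cell precursors, had 4.08 on array 2 and 4.19 on array 1. Ankrd37, a gene induced by HIF-1, had 0.14 on array 2 and 0.13 on array 1. Mxi1, an antagonist of the transcription factor MYC, had 2.84 on array 2 and 3.0 on array 1. The vasodilator peptide gene Adm had -3.35 on array 2 and -3.15 on array 1, and Car9, a carbonic anhydrase that is a classic marker of hypoxic tumours, had -3.59 on array 2 and -3.49 on array 1. Bnip3l, Mxi1, Adm and Car9 were lower in array 2 by 0.11, 0.16, 0.20 and 0.11 on the log2 scale, each within its scanner error. Adm and Car9 were dim, not far above the detection floors of -4.58 on array 2 and -4.62 on array 1. Signs were thus mixed among the 10 HIF targets, but the 4 lower ones lay within their errors and show no opposed direction. The 5 that exceeded their errors, Ndrg1, P4ha2, P4ha1, Vegfa and Bnip3, were higher in array 2, though the Vegfa probes did not share a sign. A difference beyond 1 error, in either direction, was found for 3926 of all 13743 measured genes.

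The promoters of 3 HIF targets are shown because these genes have a single start site in the RefSeq table of assembly GRCm38.p6 and the largest differences of such genes. Each line gives the 250 bases before the start, 5′ to 3′ on the gene's strand, with the core of the HIF response element (ACGTG or GCGTG, either strand) in capitals. The P4ha2 window is chr11:54100674-54100923 on the plus strand, that of P4ha1 is chr10:59323046-59323295 on the plus strand, and that of Bnip3 is chr7:138909507-138909756 on the minus strand.
P4ha2: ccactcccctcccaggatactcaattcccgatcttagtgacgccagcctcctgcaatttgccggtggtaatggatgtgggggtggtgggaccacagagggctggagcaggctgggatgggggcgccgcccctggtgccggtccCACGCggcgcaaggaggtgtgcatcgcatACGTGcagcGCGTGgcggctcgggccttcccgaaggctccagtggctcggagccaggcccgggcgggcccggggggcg
P4ha1: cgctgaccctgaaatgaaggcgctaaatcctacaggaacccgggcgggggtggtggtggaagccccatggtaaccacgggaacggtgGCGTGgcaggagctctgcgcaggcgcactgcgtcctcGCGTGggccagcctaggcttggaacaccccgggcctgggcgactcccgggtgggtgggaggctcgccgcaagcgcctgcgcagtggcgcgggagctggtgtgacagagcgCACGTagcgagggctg
Bnip3: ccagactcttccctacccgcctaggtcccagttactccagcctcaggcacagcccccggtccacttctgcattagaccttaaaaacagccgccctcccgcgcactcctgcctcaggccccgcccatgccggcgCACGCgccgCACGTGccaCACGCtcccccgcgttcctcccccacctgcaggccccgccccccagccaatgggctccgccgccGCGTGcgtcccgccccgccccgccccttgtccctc

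The P4ha2 window holds 3 such motifs, of which the nearest begins 69 bases before the start. In the P4ha1 window 3 motifs begin 163, 126 and 16 bases before it. The Bnip3 window holds 5, and its ACGTG matches on the 2 strands overlap and form CACGTG, the E-box that MYC and the clock proteins also bind. Promoter windows of 33 of the 36 members were used, those of Slc2a3, Ndrg1 and Bnip3l being not analysed here, and 31 of the 33 (93.9%) had the motif in at least 1 window. Over all 27025 genes in the table the share was 41.5%. The list was chosen to hold HIF target genes, so this contrast is not a test. Members also had more windows per gene, with 49 windows for 33 genes against 32851 for 27025. Counted by window, the shares were 81.6% for members and 38.6% for all windows. Member windows were rich in CpG dinucleotides, which the motif contains, with a median of 14 against 6 over all windows. Among windows with 9 to 21 CpG dinucleotides, the motif was present in 22 of 27 member windows (81.5%) and in 59.1% of all 8379 windows. A match is a description of the sequence, and the members with a motif included genes that were higher, lower and nearly level between the arrays.

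**Figure D4:**
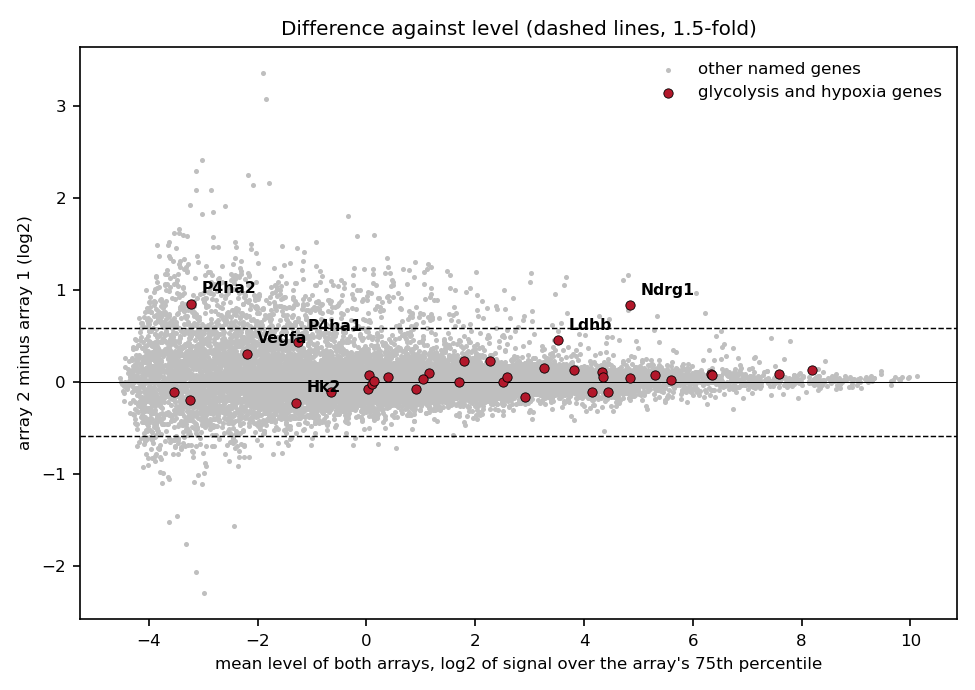
Difference (array 2 minus array 1, log2) against the mean level of both arrays for all 13743 measured genes (grey) and the 36 members (red), with the 1.5-fold limits dashed. The grey cloud narrows as the level rises, and P4ha2 lies inside the wide cloud of dim genes. Ndrg1 lies above the bulk of the cloud but not alone there. It is among 131 genes with a mean level at or above the 75th percentile that were higher in array 2 by 1.5-fold or more.

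The rest of the pathway was read from a list of 71 related genes on the array, of which 62 were measured on both arrays, 1 on array 2 only and 8 on neither. Of the 62, 10 (16.1%) reached 1.5-fold upwards in array 2, where 5.15% of all measured genes did, and 0 reached it downwards, where 0.815% did. Among them were Pdk4, Pgam2, Ldhd, Slc2a4, Slc2a5 and 4 genes of gluconeogenesis. Ldhd, the mitochondrial D-lactate dehydrogenase, had 0.98 on array 2 and -0.06 on array 1. The insulin-regulated transporter gene Slc2a4 had 0.17 on array 2 and -0.42 on array 1, and the fructose transporter gene Slc2a5 had -1.80 on array 2 and -2.51 on array 1. Slc2a2, which encodes the GLUT2 of proximal tubule and liver, had -3.28 on array 2 and -3.86 on array 1, just under the limit of 1.5-fold. In the opposite direction, Slc2a6, a transporter of immune cells, had -0.29 on array 2 and 0.12 on array 1, a difference of -0.41 ± 0.15.

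Gluconeogenesis, which runs glycolysis backwards in liver and proximal tubule, had 6 of 7 genes measured and a median difference of 0.82. Fbp1, the fructose bisphosphatase, had 4.16 on array 2 and 3.11 on array 1. Pcx, the pyruvate carboxylase, had 2.05 on array 2 and 1.03 on array 1, and Pck1, the cytosolic carboxykinase, had 1.52 on array 2 and 0.62 on array 1. G6pc, the glucose 6-phosphatase that releases glucose from liver and kidney, had 1.41 on array 2 and 0.67 on array 1. These 4 genes were 1.67-fold to 2.08-fold higher in array 2. The widely expressed G6pc3 and the mitochondrial Pck2 differed by -0.04 ± 0.14 and 0.21 ± 0.15, and the muscle form Fbp2 was well above background on neither array. The proximal tubule markers moved in the same direction, and their part in these differences was not tested.

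**Figure D5:**
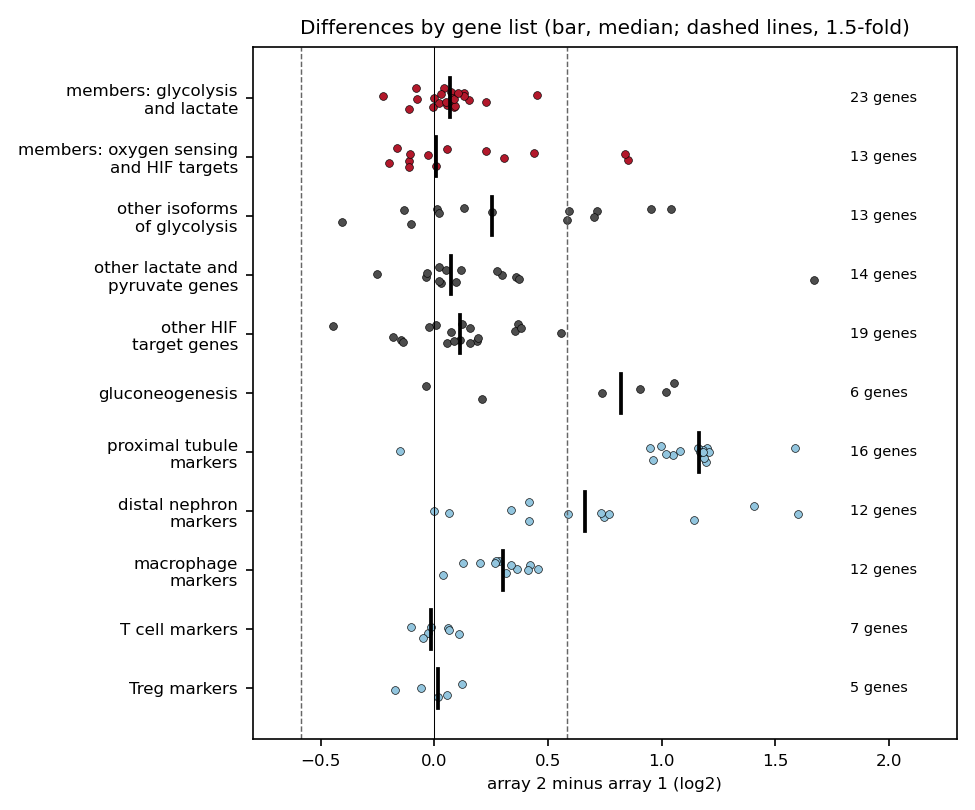
Difference (array 2 minus array 1, log2) of each gene measured on both arrays, by list, with a bar for the median and dashed lines at 1.5-fold. The 23 members of glycolysis and lactate handling and the T cell and Treg markers lie close to 0. Of the 6 genes of gluconeogenesis (median 0.82), 4 lie beyond 1.5-fold and G6pc3 and Pck2 do not. Of the 16 proximal tubule markers (median 1.16), 15 lie beyond 1.5-fold.

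Of 21 further HIF target genes on the array, 19 were measured on both arrays. Their median difference was 0.11, 14 were higher and 5 lower, and 0 reached 1.5-fold. Over all measured genes, 53.8% were higher in array 2 and 5.97% reached 1.5-fold. Ddit4, an inhibitor of mTOR that both hypoxia and glucocorticoids induce, came nearest to it, with 6.79 on array 2 and 6.23 on array 1, a difference of 0.56 ± 0.20. Hmox1, the haem oxygenase, was higher by 0.38 ± 0.20 and Plin2, a lipid droplet protein, by 0.36 ± 0.15. Higd1a, Fam162a and Kdm3a, mitochondrial and chromatin targets of HIF-1, differed by 0.01, 0.11 and -0.02. Epo, the erythropoietin gene, and Edn1, the endothelin gene, were well above background on neither array. As in the members, sizes varied and signs were mixed. Of the 5 lower genes only Stc2 exceeded its error (-0.45 ± 0.35), and it was dim, at -4.26 on array 2 and -3.81 on array 1.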

How the data were processed

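RNA of sorted kidney Tregs was measured on 2 Cy3 arrays, 1 per anti-GBM lot. Agilent Feature Extraction 10.7.1.1 gave each spot a processed signal intensity, corrected for background and detrended but not scaled between arrays, per the file headers and the processing notes of the submitters. The deposited files also hold raw median intensities and other flags of 0 or 1. The deposited value table holds a linear ratio per probe, which the comparison with the scanner output showed to be the processed signal over 1 constant per array, not centred by gene. The sources used here do not say how the authors made it, and its columns carry the opposite lots.

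From each log2 signal the array's 75th percentile, taken over 56605 non-control probes, was subtracted. Among 62976 spots per array, 3671 control spots and the outlier spots (56 on array 2, 75 on array 1) were left out, and 0 spots were saturated. RefSeq accessions (assembly GRCm38.p6) named 32994 probes for 22911 genes, and the other 23611 probes have no name here. A gene's difference averages those of its probes that both arrays called well above background. No test was run, since each lot has 1 array, and precision is limited by the number of arrays.

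All 36 members are named. Related genes are named as other isoforms of a step, at 1.5-fold or more, or where they were measured on 1 array. Others named for their role (Emb, Bsg, Pdk2, Pdk3, Pdha1, Pdhb, Dlat, Tigar, Pfkfb1, Pfkfb2, Vhl, Epas1, Arnt, Ddit4, Hmox1, Plin2, Higd1a, Fam162a, Kdm3a, G6pc3, Pck2, Fbp2, Epo, Edn1) or their difference (Stc2) were chosen after their values were seen. Some genes that this rule takes in are not reported here. The members, lists and alternatives were chosen with earlier results of these data known. Values were computed with Python 3.11.15 and limma 3.58.1. Alternatives were normexp (offset 50, raw median signals), scaling by the gene median or spike-ins, lowess centring (span 0.3), quantile normalisation, the brightest probe, a stricter filter (4 times the floor), no filter, outlier spots kept and the value table. The gene summary was checked on simulated data.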

Additional observations from a re-analysis of the deposited data

How the results depend on the processing

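With no replicate within a lot, no alternative that leaves out an array exists, and no paired analysis was possible because each lot has 1 array. The members past 1.5-fold numbered 2 in the values reported and 1 with normexp or the stricter filter on dim probes, where Ndrg1 alone remained. With no filter on dim probes they numbered 3, through the Hk1 probe that is not well above background. The members past 2-fold stayed at 0 and the detected members at 36 of 36, apart from 33 under the stricter filter and 34 when every probe of a gene had to be well above background. Genes of all kinds past 1.5-fold fell to 237 of 13743 with normexp and rose to 2668 of 22911 with no filter, against 820 of 13743, and were 411 of 11830 with the stricter filter. Past 2-fold, they numbered 28 with normexp, 85 with the stricter filter and 1047 with no filter, against 196.

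The median of the glucose transporters, 0.03, became -0.0687 with the stricter filter and with the brightest probe, both of which drop the dimmer Slc2a3 probe. The median of the HIF target genes, 0.12, became 0.23 with the stricter filter, which left 7 of 10. The value table taken by its labels turned the sign by construction. It gave -0.0575 for the members, -0.0741 for upper glycolysis, -0.0897 for lower glycolysis, -0.12 for HIF target genes, -0.85 for P4ha2 and -0.84 for Ndrg1. Of single members, 2 moved by more than their error with normexp (P4ha1 to 0.26 and P4ha2 to 0.24) and 2 with the stricter filter (Slc2a3 and Vegfa). The number was 1 with spike-in scaling (Aldoc), 1 with the brightest probe (Slc2a3) and 1 with no filter (Hk1). It was 0 with quantile normalisation, lowess centring, the gene median or outlier spots kept. Dim probes set the limit: P4ha2, Adm and Car9 did not pass the stricter filter.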
